A study of Homo sapiens with 12 samples.

Results

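The mRNA of MOLM13 cells carrying YBX1 sgRNA2 was compared with that of cells carrying the control vector, 7 days after lentiviral transduction. MOLM13 is an established human line of acute myeloid leukemia (AML) with monocytic features. The comparison takes the 8 libraries labelled sgRNA2 or control out of 12 in the series, 4 in each group, and pairs them by their replicate number. The remaining 4 libraries carry a second guide, sgRNA1.

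In the sgRNA2 group Cas9 was directed to YBX1. In the control group the vector carried no YBX1 guide, and the labels call it both an empty vector and a non-targeting guide. All groups share stable Cas9 expression under blasticidin (5 µg/ml), puromycin selection of transduced cells (1 µg/ml) and sorting by the fluorescence that the guide vector confers. The labels do not state how many independent cultures or clones lie behind the 4 libraries of a group, so p-values measure the spread between these libraries, which may be technical. Cutting by Cas9 as such and loss of YBX1 cannot be told apart, since the control was given no guide that cuts elsewhere as far as the labels say.

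YBX1 belongs to the cold-shock domain proteins, which coat mRNAs in the cytoplasm and influence their stability and translation. It was first known for binding the Y box, an inverted CCAAT motif in promoters, from which it has its name. In leukemic cells it is required for proliferation, and the protein synthesis machinery, cell cycle genes and myeloid maturation genes are the groups most often discussed around it. Cap-dependent translation starts with the eIF4F complex, in which eIF4B assists the helicase eIF4A, and the eIF3 complex joins it to the small ribosomal subunit.

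Values are regularized log2 values (rlog) as deposited by the authors, a log2 scale of size-factor normalized counts on which differences of weakly expressed genes are shrunken. A total of 10982 protein-coding genes with a mean rlog of at least 4 over the 12 libraries were tested with limma, with the replicate number as a block, and a gene was called at an adjusted p below 0.05 over all of these genes. The total count per library is unknown, so no counting error can be given. The median spread within a group was an SD of 0.092 for sgRNA2 and 0.094 for control (n = 4 each). All 10 markers chosen for MOLM13 identity, among them FLT3, CD33, SPI1 and MPO, were expressed in both groups, while none of 4 erythroid and 3 T cell markers reached a mean of 4. Transcripts linked to other lineages were also present at similar levels in both groups, with PAX5 at 8.98 to 9.39 in sgRNA2 and 9.10 to 9.33 in control libraries, and NCAM1 at 10.42 to 10.52 in sgRNA2 and 10.46 to 10.82 in control libraries. Libraries 3 and 4 differed from libraries 1 and 2 in every group, and sgRNA2 library 3 resembled control library 4 (correlation of deviations from the group mean 0.75) more than control library 3 (0.38).

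YBX1 mRNA was lower in all 4 sgRNA2 libraries than in any control library. YBX1 (ENSG00000065978.18, chromosome 1, 42682427 to 42702349, forward strand, GRCh38) had rlog values of 11.93, 12.07, 11.83 and 11.89 in sgRNA2 libraries 1 to 4, against 12.91, 12.96, 12.76 and 12.81 in control libraries 1 to 4. It averaged 11.93 ± 0.10 with sgRNA2 and 12.86 ± 0.09 in control (SD, n = 4 each). The log2 fold change was -0.93 (SE 0.0388, adjusted p = 2.79e-13 in limma, and 8.95e-05 without the block), so that 52.6% of the control level remained on the rlog scale. A two-sided exact permutation test of the 4 against 4 values gave p = 0.0286, the smallest that 70 arrangements allow. Sign flips within the 4 numbered pairs gave an exact p = 0.125, the smallest that 16 arrangements allow. The guide sgRNA1 left less YBX1 mRNA, 31.3% of control. YBX1 has processed pseudogenes in the genome, so its counts may be shared with them.

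The relatives of YBX1 moved less. YBX3, the other broadly expressed Y-box protein, fell by 0.15 (SE 0.0386, adjusted p = 0.031 in limma) with 11.60, 11.79, 11.54 and 11.54 in sgRNA2 libraries, against 11.73, 11.87, 11.71 and 11.75 in control libraries. The groups overlapped for YBX3, and it passed in 3 of 12 leave-out fits (each sgRNA2 or control library, or each number, omitted in turn). CARHSP1, a small cold-shock protein, differed by -0.03 (SE 0.0517, adjusted p = 0.81).

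Outside YBX1 the response to sgRNA2 was broad and small. A total of 434 genes passed (3.95% of those tested), of which 238 rose (2.17%) and 196 fell (1.78%). The median difference was 0.21 among the genes that rose and -0.18 among those that fell, while 90% of all genes lay between -0.13 and 0.13. YBX1, EIF4B and ITGAX passed a fold of over 1.5 as well (3 genes, 0.0273%). In 116 of the called genes the groups did not overlap, 62 above control and 54 below, and over all genes tested 1.4% lay entirely above and 1.5% entirely below. Of the 434 genes 418 moved in their direction in all 4 pairs, where 10.8% of all genes were higher and 13.6% lower in all 4 pairs. The blocked fit favors genes that move alike in these pairs, so this count is not separate support for the calls.

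The size of this set depended on the pairing of libraries. Without the block 4 genes passed, YBX1, EIF4B, EIF3L and FBXO33 (0.0364%), and all of them fell, with 587 genes at an unadjusted p below 0.05 against 2095 with the block. The count was 145 without control library 3, 162 without sgRNA2 library 4, 163 without control library 1, 270 without sgRNA2 library 2 and 658 without control library 4, and it was 170, 156 and 198 without number 1, 3 or 4. A total of 84 genes (46 that rose, 38 that fell) held their call when each library of the comparison, or each number, was omitted in turn (12 leave-out fits). The directions below are those of the blocked fit. The gene lists were chosen with earlier results of these data known, so their shares are descriptive and not independent support. Counts of called members in a list stand against the 2.17% that rose and 1.78% that fell over all genes tested.

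**Figure D1:**
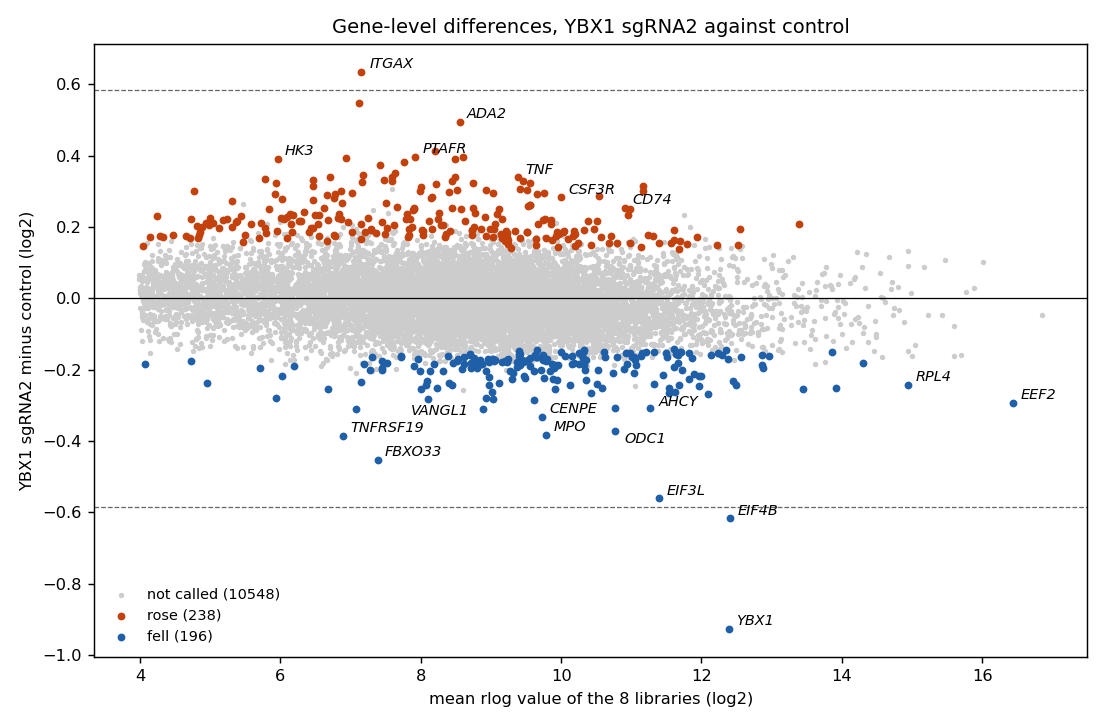
Difference between YBX1 sgRNA2 and control for each of 10982 genes (y axis, log2) against the mean rlog value of the 8 libraries (x axis, log2). Genes called in limma with the replicate block are colored (238 rose, 196 fell) and dashed lines mark a fold of 1.5. YBX1 at -0.93, EIF4B and ITGAX lie beyond them, and the remaining called genes are within.

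The strongest decreases after YBX1 were in translation initiation. EIF4B, which encodes the helicase cofactor eIF4B (chromosome 12, 53006158 to 53042209), was at 12.12, 12.20, 12.03 and 12.06 in sgRNA2 libraries, against 12.69, 12.66, 12.76 and 12.78 in control libraries. It was lower in every sgRNA2 library than in any control library, and the log2 fold change came to -0.62 (SE 0.0516, adjusted p = 1.38e-07 in limma, and 0.00199 without the block), or 65.2% of control. EIF3L, a subunit of eIF3 (chromosome 22, 37848868 to 37889407), had 11.01, 11.23, 11.13 and 11.11 with sgRNA2, against 11.56, 11.65, 11.75 and 11.76 in control. Here too the groups were apart, at -0.56 (SE 0.0444, adjusted p = 7.37e-08, and 0.00627 without the block), or 67.8% of control.

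Further members of the machinery fell by less. EIF3D, the eIF3 subunit that can bind the cap, was at 11.91 to 12.04 with sgRNA2 and 12.15 to 12.30 in control, at -0.27 (SE 0.0418, adjusted p = 0.000952). EIF4EBP2, a repressor of the cap-binding protein eIF4E, fell by 0.20 (adjusted p = 0.00591) and EIF3F, another eIF3 subunit, by 0.15 (adjusted p = 0.0462). EEF2, the translocase of elongation, was at 16.22, 16.44, 16.26 and 16.25 with sgRNA2, against 16.45, 16.53, 16.73 and 16.63 in control. Its log2 fold change was -0.29 (SE 0.0594, adjusted p = 0.00706), which missed the threshold without number 4 (0.0945) and was 0 under quantile scaling. EEF1B2, a nucleotide exchange factor of elongation, fell by 0.20 (adjusted p = 0.00906) and passed in 7 of the 12 leave-out fits.

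These genes moved more than the medians of their lists. Of 39 initiation factors tested, 5 fell (12.8%, against 1.78% of all genes) and none rose. The median of the list was -0.03, against -0.005 for all genes, with 12 members above 0 and 27 below. Of 10 elongation and termination factors EEF2 and EEF1B2 fell (20%), with a median of -0.05. All 10 had a negative difference. Without the block 2 initiation factors (EIF4B and EIF3L) and no elongation factor passed.

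Among ribosomal proteins of the large subunit RPL4, RPL5 and RPL6 fell, 3 of 50 tested (6%, against 1.78% of all genes). The list had a median of -0.01 (0.02 under quantile scaling). RPL6 was at 13.69, 13.80, 13.86 and 13.84 with sgRNA2, against 13.98, 14.06, 14.02 and 14.13 in control, with -0.25 (SE 0.043, adjusted p = 0.0018). RPL4 was at 14.66, 14.88, 14.90 and 14.88 with sgRNA2, against 14.96, 15.09, 15.11 and 15.12 in control, with -0.24 (SE 0.0444, adjusted p = 0.00305). Both stayed below control in every library, and both kept their call in all 12 leave-out fits, while RPL5 (-0.18, adjusted p = 0.0268) did so in 5. None of 34 small-subunit proteins passed, with RPS16 closest (-0.17, adjusted p = 0.0636). Ribosomal protein genes have many near-identical processed pseudogenes, so their counts can be split between copies. In pair 3 the median of both ribosomal lists was positive (0.13 and 0.12), unlike in the other pairs (-0.11 to -0.03).

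PABPC4 and G3BP1 fell among 28 poly(A)-binding and mRNP proteins (7.14%, against 1.78% of all genes, median -0.07). PABPC4, a cytoplasmic poly(A)-binding protein, was at 11.40 to 11.63 with sgRNA2 and 11.68 to 11.86 in control (-0.26, SE 0.0381, adjusted p = 0.000396). G3BP1, a scaffold of stress granules, fell by 0.25 (SE 0.0427, adjusted p = 0.00158). None of 16 writers, erasers and readers of N6-methyladenosine passed, with YTHDC1, a nuclear reader, at -0.10 (adjusted p = 0.17). QARS fell by 0.21 (adjusted p = 0.0105) and EPRS by 0.19 (adjusted p = 0.0368) among 22 cytosolic aminoacyl-tRNA synthetases, and POLR1E, a subunit of RNA polymerase I, by 0.16 (adjusted p = 0.0363) among 33 ribosome biogenesis factors. They passed in 7, 3 and 2 of the 12 leave-out fits, and EPRS was at -0.12 without sgRNA2 library 3 and at -0.11 without number 3 (adjusted p = 0.233).

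Many mRNAs of the translation machinery begin with a 5′ terminal oligopyrimidine (TOP) tract, a cytosine followed by a run of pyrimidines, through which their translation is controlled. RefSeq starts (GRCh38.p14) were found for 8813 of the 10982 genes by symbol. The first 20 bases from the annotated start of the called factors EIF4B, EIF3D and EEF2 are shown because each opens with such a tract, in capitals.
EIF4B: CTTTTgcgttctctttccct
EIF3D: CTCTTTTCCTggtttctcaa
EEF2: CTCTTCCgccgtcgtcgccg
They lie at chr12:53006456-53006475 (forward strand), chr22:36529147-36529166 (reverse) and chr19:3985444-3985463 (reverse). A C followed by at least 4 letters C or T at the start was found in 19 of 154 matched genes that fell (12.3%), in 6 of 172 that rose (3.49%) and in 492 of 8487 that were not called (5.8%). Within the translation factors and ribosomal proteins themselves the letters opened 4 of 8 that fell (50%) and 50 of 101 not called (49.5%). A match describes the letters at the annotated start and not the start used in these cells.

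**Figure D2:**
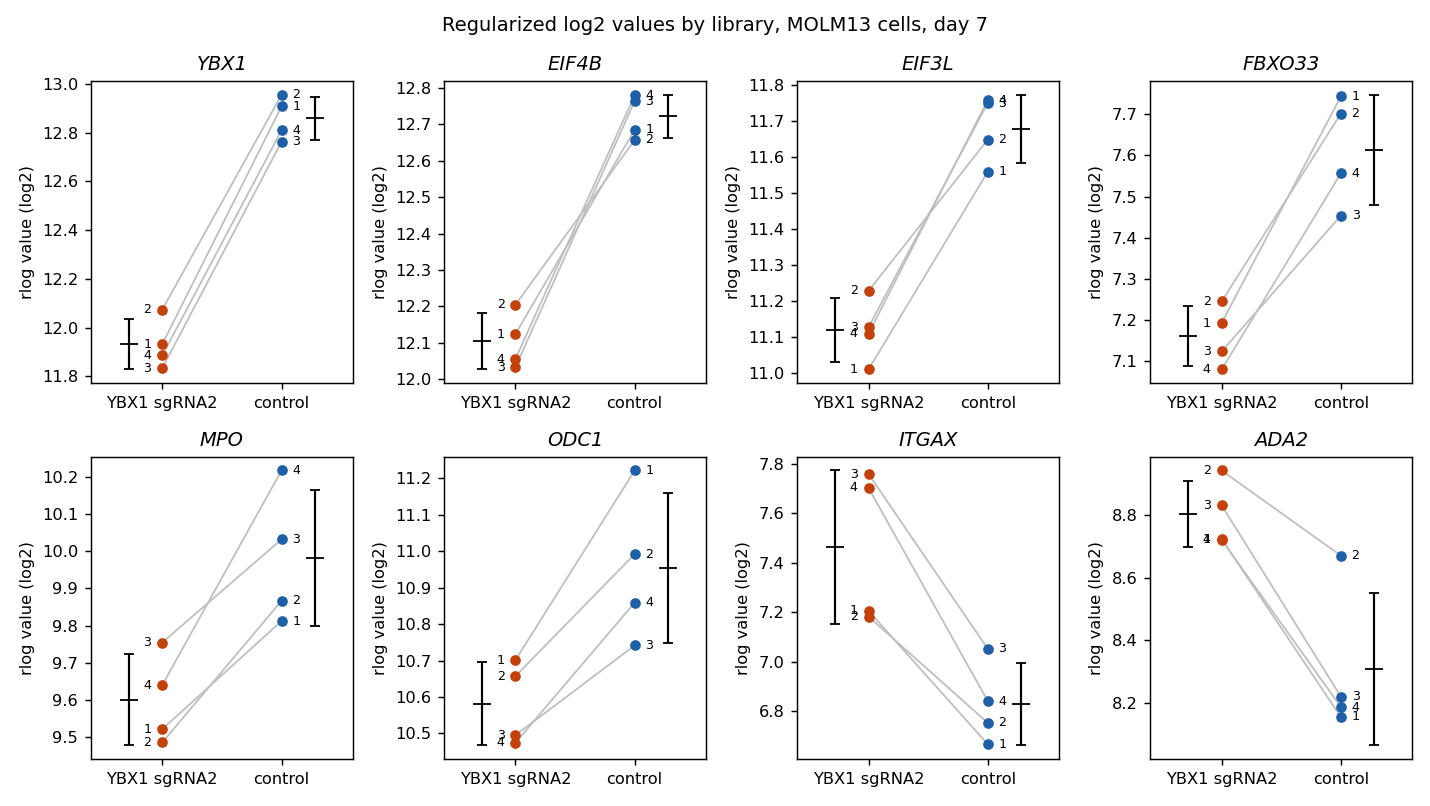
rlog values (y axis, log2) of 8 genes in the 4 YBX1 sgRNA2 libraries (orange) and the 4 control libraries (blue), with gray lines joining libraries of the same number and black marks for mean ± SD (n = 4). YBX1, EIF4B, EIF3L, FBXO33, MPO and ODC1 are lower and ITGAX and ADA2 higher in every sgRNA2 library than in any control library. The y axes differ between genes and do not start at 0.

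FBXO33, MPO and ODC1 also fell. FBXO33, an F-box protein reported to target YBX1 for ubiquitination (chromosome 14, 39397669 to 39432500, reverse strand), was at 7.19, 7.25, 7.12 and 7.08 with sgRNA2, against 7.74, 7.70, 7.45 and 7.56 in control. The groups were apart, at -0.45 (SE 0.0488, adjusted p = 9.22e-06, and 0.026 without the block). Of the 13 genes listed for SCF ubiquitin ligases, SKP2 and the cyclin CCNF also fell, by 0.19 (adjusted p = 0.0148) and 0.20 (adjusted p = 0.0271). These had overlapping groups and passed in 6 and 4 of the 12 leave-out fits.

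MPO, the peroxidase of primary granules and a marker of immature myeloid cells, was at 9.52, 9.48, 9.75 and 9.64 with sgRNA2, against 9.81, 9.87, 10.03 and 10.22 in control. It was lower in every sgRNA2 library than in any control library (-0.38, SE 0.0513, adjusted p = 0.000216). Without the block it had an adjusted p of 0.673, and over the groups its level in libraries 3 and 4 exceeded that in 1 and 2 by 0.28.

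ODC1, which catalyzes the first step of polyamine synthesis, was at 10.70, 10.66, 10.50 and 10.47 with sgRNA2, against 11.22, 10.99, 10.74 and 10.86 in control. This gave -0.37 (SE 0.0524, adjusted p = 0.00031), with the groups apart. AHCY, which hydrolyzes S-adenosylhomocysteine in the methionine cycle, was at 10.99, 11.28, 11.10 and 11.06 with sgRNA2, against 11.34, 11.45, 11.43 and 11.43 in control (-0.31, SE 0.0408, adjusted p = 0.000216). AMD1, the decarboxylase that supplies polyamine synthesis, fell by 0.17 (adjusted p = 0.0242) and MTR, methionine synthase, by 0.15 (adjusted p = 0.0492). They made up 4 of 18 genes of polyamine and methionine metabolism (22.2%, against 1.78% of all genes). None of the list rose, and its median was -0.04. AHCY and ODC1 kept their calls in all 12 leave-out fits, and AMD1 and MTR in 5 and 3, MTR being at -0.10 without number 3 (adjusted p = 0.306).

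ODC1 is also a classical target of the transcription factor MYC. MYC itself was at 13.05, 13.01, 13.10 and 13.16 with sgRNA2, against 13.02, 12.95, 12.98 and 13.19 in control, a difference of 0.05 (SE 0.0415, adjusted p = 0.597) with overlapping groups. Of 28 MYC target genes ODC1, IMPDH2 (guanine nucleotide synthesis) and PHB2 (a mitochondrial scaffold) fell and none rose, with a list median of -0.06. The share that fell was 10.7%, against 1.78% of all genes. IMPDH2 fell by 0.17 (adjusted p = 0.0151) and PHB2 by 0.17 (adjusted p = 0.0461), with calls in 7 and 3 of the 12 leave-out fits. Of 11 genes of the MYC, MAX and MXD network MXD4, an antagonist of MYC, rose by 0.19 (SE 0.0482, adjusted p = 0.033). The rise of MXD4 was uneven, with differences of 0.28, 0.28, 0.12 and 0.06 in pairs 1 to 4, and it passed in 4 of the 12 leave-out fits.

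Of 30 genes of G2 and mitosis tested 13 fell (43.3%, against 1.78% of all genes) and none rose, all 30 had a negative difference, and the list median was -0.15, against -0.005 for all genes. In the numbered pairs the median was -0.15, -0.12, -0.13 and -0.15. CENPE, the kinetochore motor, was at 10.03, 9.82, 9.20 and 9.19 with sgRNA2, against 10.25, 10.05, 9.88 and 9.38 in control. It fell by 0.33 (SE 0.069, adjusted p = 0.00844) while the groups overlapped. Its level in libraries 3 and 4 lay below that in 1 and 2 in every group, by 0.55 as a mean over the groups. Without sgRNA2 library 3 its difference was -0.20, and the call held.

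TOP2A, the topoisomerase that untangles chromosomes, was at 12.63, 12.47, 12.17 and 12.21 with sgRNA2, against 12.81, 12.70, 12.60 and 12.33 in control (-0.24, SE 0.0514, adjusted p = 0.00967). BUB1B, a kinase-like component of the spindle checkpoint, was at 9.97, 9.91, 9.76 and 9.79 with sgRNA2, against 10.13, 10.05, 9.98 and 10.01 in control (-0.19, SE 0.0403, adjusted p = 0.011). For BUB1B the groups did not overlap, for TOP2A they did. DLGAP5, a spindle assembly factor, fell by 0.21 (adjusted p = 0.0123). The others that fell were BUB1, AURKA, KIF11, TTK, KIF23, TPX2, CCNA2, CCNB1 and CENPF, which encode checkpoint kinases, mitotic kinases, motors and cyclins.

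Replication and S phase genes had 6 decreases among 38 tested (15.8%) and no increase, with a median of -0.09. GINS1, a subunit of the replicative helicase, fell with overlapping groups (-0.24, SE 0.0457, adjusted p = 0.00434). RFC5, a clamp loader subunit, was at 9.26 to 9.30 with sgRNA2 and 9.39 to 9.53 in control (-0.19, SE 0.0422, adjusted p = 0.0124), with the groups apart. MCM10, RRM1, CDC6 and POLA1 fell as well.

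The number of cell cycle calls rested on the block and on single libraries. Without the block none of the mitotic or S phase genes passed, and the mitotic count was 2 to 13 and the S phase count 1 to 9 over the leave-out fits, with list medians of -0.16 to -0.13 and -0.11 to -0.08. In numbers 1 and 2 alone 8 mitotic genes fell (median -0.13) and in numbers 3 and 4 alone 4 (median -0.16). Control libraries 3 and 4 were themselves lower than control libraries 1 and 2 for 147 of the 196 genes that fell with sgRNA2, with a median of -0.13, against -0.02 over all genes, and the part of this split in the result was not tested. In bulk RNA fewer cells in a phase or of a type and less RNA per cell cannot be told apart.

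The promoters of mitotic genes typically carry CCAAT boxes, bound by NF-Y, and a cell cycle homology region (CHR). The 120 bases upstream of the RefSeq start are shown for 5 mitotic genes that fell, because they hold CCAAT boxes, on 1 strand or the other. KIF23, CENPF and DLGAP5 also hold the Y box letters, and KIF23, CENPF, CCNB1 and DLGAP5 the CHR letters. Capitals mark, on either strand, CTGATTGG (the Y box letters), the CCAAT box, and TTTGAA or TTTAAA (the CHR letters).
KIF23: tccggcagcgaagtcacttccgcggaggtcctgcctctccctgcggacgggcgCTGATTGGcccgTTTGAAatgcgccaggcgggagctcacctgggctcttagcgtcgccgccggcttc
CENPF: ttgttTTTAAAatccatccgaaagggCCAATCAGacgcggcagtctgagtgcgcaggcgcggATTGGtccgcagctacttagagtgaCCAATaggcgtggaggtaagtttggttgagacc
CCNB1: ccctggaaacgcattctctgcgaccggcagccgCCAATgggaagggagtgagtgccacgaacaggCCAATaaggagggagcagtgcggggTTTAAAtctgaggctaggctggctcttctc
DLGAP5: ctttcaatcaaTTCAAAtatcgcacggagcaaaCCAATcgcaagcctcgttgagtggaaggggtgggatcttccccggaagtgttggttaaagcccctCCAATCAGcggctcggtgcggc
TOP2A: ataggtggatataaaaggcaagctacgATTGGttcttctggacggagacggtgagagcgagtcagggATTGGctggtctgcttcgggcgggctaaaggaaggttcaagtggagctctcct
They lie at chr15:69414229-69414348 (KIF23, forward), chr1:214603075-214603194 (CENPF, forward), chr5:69167030-69167149 (CCNB1, forward), chr14:55191586-55191705 (DLGAP5, reverse) and chr17:40417897-40418016 (TOP2A, reverse). In KIF23 the Y box begins 67 bases and the CHR letters 55 bases upstream of the start. In CCNB1 CCAAT boxes begin 87 and 55 bases and TTTAAA 30 bases upstream.

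Over the 250 bases upstream, CTGATTGG was present on either strand in 20 of 154 genes that fell (13%), 9 of 172 that rose (5.23%) and 429 of 8487 not called (5.05%). CCAAT, whose reverse complement lies within these letters, was present in 45.5%, 32% and 35.2%, and TTTGAA or TTTAAA in 26%, 19.8% and 13.7%. Among 10 mitotic genes that fell and had an entry, 8 held CCAAT and 8 held TTTGAA or TTTAAA. The mitotic genes that were not called were not counted as a group, so these counts do not set apart those that fell. Outside the mitotic and S phase lists the shares in the genes that fell were 10.1% for CTGATTGG, 40.6% for CCAAT and 22.5% for the CHR letters (n = 138). Only members of these lists were taken out, so other cell cycle genes that fell can remain. These shares describe letters, not binding.

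**Figure D3:**
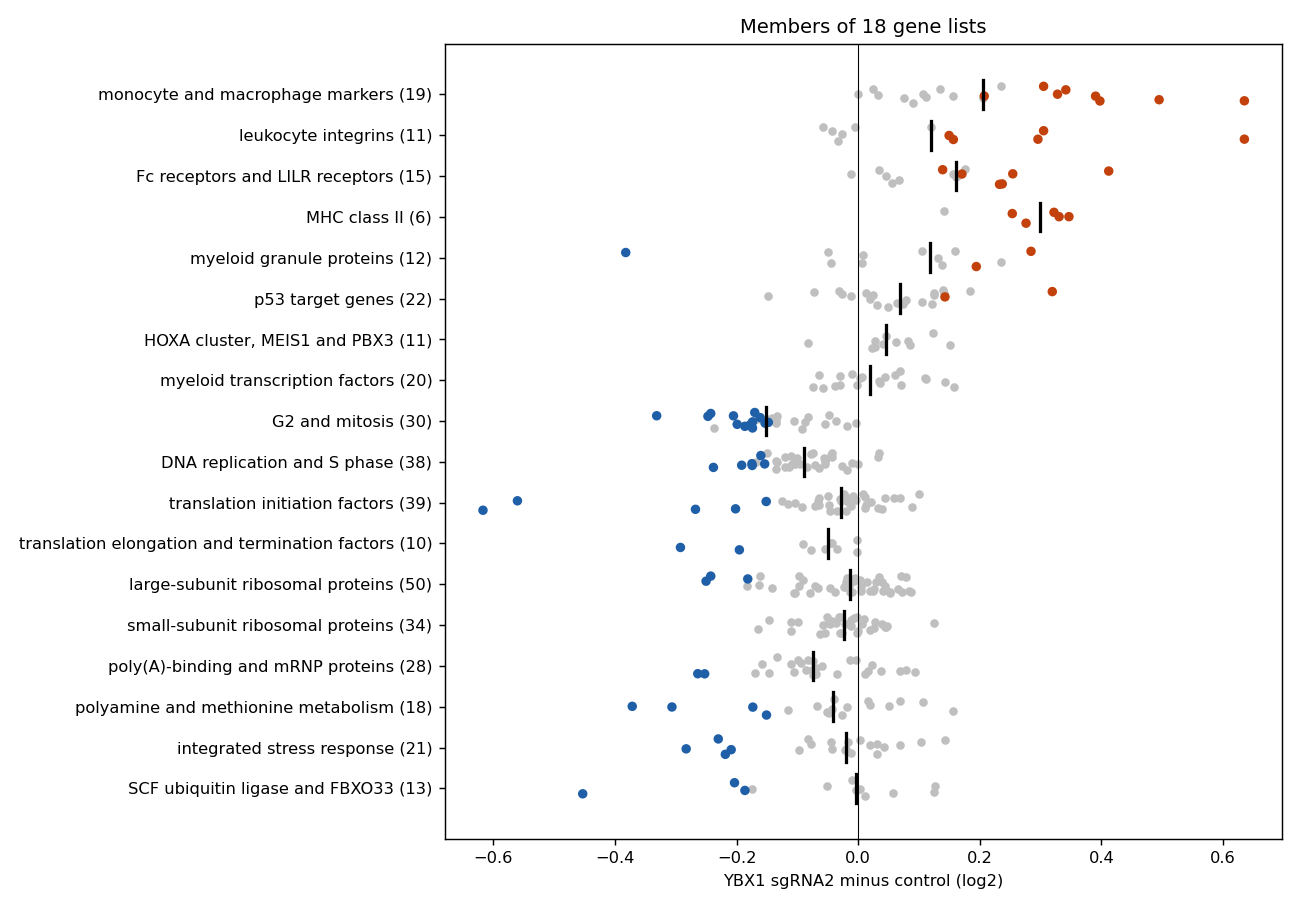
Difference between YBX1 sgRNA2 and control (x axis, log2) for each tested member of 18 gene lists, with the number tested in parentheses. Orange points rose and blue points fell in limma with the replicate block, gray points were not called, and black bars mark list medians. The mitotic list lies below 0 throughout, and the monocyte, Fc receptor and MHC class II lists lie mostly above 0.

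ITGAX and ADA2 had the largest increases that held in all 4 pairs. Both stand in the list of monocyte and macrophage markers, of which 19 were tested. Of these 8 rose (42.1%, against 2.17% of all genes) and none fell, with a list median of 0.21. The list was chosen with earlier results of these data known, so this share is not independent support. ITGAX, the integrin chain CD11c of monocytes and dendritic cells (chromosome 16, 31355134 to 31382997), was at 7.21, 7.18, 7.76 and 7.70 with sgRNA2, against 6.67, 6.75, 7.05 and 6.84 in control. It was higher in every sgRNA2 library than in any control library, and its log2 fold change came to 0.64 (SE 0.0631, adjusted p = 2.72e-06, and 0.462 without the block).

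ADA2, the extracellular adenosine deaminase of monocytes (chromosome 22, 17178790 to 17258235, reverse strand), was at 8.72, 8.94, 8.83 and 8.72 with sgRNA2, against 8.16, 8.67, 8.22 and 8.19 in control (0.49, SE 0.0582, adjusted p = 3.64e-05, and 0.237 without the block). The groups were apart although control library 2 lay well above the other control libraries. HK3, a hexokinase of myeloid cells, was at 6.25, 6.10, 6.21 and 6.07 with sgRNA2, against 5.80, 5.64, 5.76 and 5.87 in control (0.39, SE 0.0545, adjusted p = 0.00031). PTAFR, the receptor of platelet-activating factor, rose by 0.40 (SE 0.061, adjusted p = 0.000834) and LGALS3, which encodes galectin-3, by 0.34 (SE 0.0573, adjusted p = 0.0015). ITGAX, ADA2, HK3, PTAFR, LGALS3 and ITGAM kept their calls in all 12 leave-out fits.

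ITGAM (CD11b), the partner of ITGB2 in phagocytes, was at 8.98, 8.75, 9.35 and 9.27 with sgRNA2, against 8.67, 8.68, 8.97 and 8.82 in control, and rose by 0.30 (SE 0.0549, adjusted p = 0.00277). The groups overlapped for ITGAM, because libraries 3 and 4 were higher than 1 and 2 in both groups. With ITGB7, ITGAL and ITGB2, 5 of 11 leukocyte integrins rose (45.5%, against 2.17% of all genes) and none fell. The list median was 0.12, with 6 members above 0 and 5 below. CSF1R, the macrophage colony-stimulating factor receptor, rose by 0.33 (SE 0.074, adjusted p = 0.0151), with a call in 6 of the 12 leave-out fits. In pair 2 CSF1R was lower with sgRNA2 (8.28) than in control (8.38). CSF3R, the granulocyte colony-stimulating factor receptor, was higher in every pair (9.84, 10.02, 10.38 and 10.32 with sgRNA2, against 9.57, 9.75, 10.03 and 10.06 in control). It rose by 0.28 (SE 0.0431, adjusted p = 0.000764). CSF1R and CSF3R were the 2 that rose among 12 myeloid growth factor receptors tested, and none fell. The median of that list was 0.04, with 9 members above 0 and 3 below.

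Most genes tested for antigen presentation by MHC class II rose. CIITA, the transactivator on which class II transcription depends, was at 6.69, 6.69, 6.53 and 6.60 with sgRNA2, against 6.35, 6.43, 6.23 and 6.18 in control (0.33, SE 0.0492, adjusted p = 0.000587). CD74, the invariant chain, was at 11.01, 10.98, 11.08 and 11.07 with sgRNA2, against 10.86, 10.78, 10.67 and 10.82 in control (0.25, SE 0.0466, adjusted p = 0.00319). For both genes every sgRNA2 library was above every control library, and both calls held in all 12 leave-out fits.

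HLA-DRA, the alpha chain of HLA-DR, was at 7.52, 7.36, 7.25 and 7.30 with sgRNA2, against 7.38, 7.42, 6.57 and 6.66 in control (0.35, SE 0.0809, adjusted p = 0.0182). In pair 2 it was lower with sgRNA2, and the groups overlapped. HLA-DRB1 and HLA-DQB1 rose by 0.32 (adjusted p = 0.00376) and 0.28 (adjusted p = 0.0159), and their alleles and paralogs make counts uncertain. HLA-DRB1 and HLA-DQB1 passed in 10 and 7 of the 12 leave-out fits. A total of 5 of 6 class II genes rose (83.3%, against 2.17% of all genes) and none fell. The list median was 0.30, and it was 0.17, 0.03, 0.45 and 0.39 in pairs 1 to 4. None of 17 MHC class I and peptide loading genes passed (median 0.02). The class II count was 2 in numbers 1 and 2 alone, 6 in numbers 3 and 4 alone and 2 to 6 over the leave-out fits.

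Of 15 Fc and leukocyte immunoglobulin-like receptors 6 rose (40%, against 2.17% of all genes) and none fell, with a median of 0.16. FCGR2B, the inhibitory IgG receptor, was at 7.79, 7.61, 9.17 and 9.07 with sgRNA2, against 7.45, 7.67, 8.48 and 8.39 in control. Its difference of 0.41 (SE 0.0787, adjusted p = 0.00425) came from pairs 1, 3 and 4, missed the threshold without number 4 (0.0667), and stands beside a difference of 1.18 between libraries 3 and 4 and libraries 1 and 2. FCGR2A, its activating relative, rose by 0.25 (adjusted p = 0.00981), LILRA1 by 0.24 (adjusted p = 0.00854) and LILRB1 by 0.23 (adjusted p = 0.0139). These 3 passed in 7, 9 and 6 of the 12 leave-out fits. FCER1G and LAIR1 also rose. FCGR2A and FCGR2B, and the LILR genes, are closely similar in sequence, so counts can be split between them.

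Of 12 granule proteins BPI, a bactericidal protein of neutrophils, and the cystatin CST7 rose and MPO fell. BPI was at 8.19, 8.03, 8.46 and 8.52 with sgRNA2, against 8.02, 7.98, 8.02 and 8.05 in control (0.28, SE 0.0611, adjusted p = 0.0106). BPI passed in 8 and CST7 in 5 of the 12 leave-out fits. None of 20 myeloid transcription factors passed, with SPI1 at 0.16 (adjusted p = 0.0589) and CEBPB at 0.14 (adjusted p = 0.152). None of 11 HOXA cluster genes and cofactors passed, with HOXA5 at 0.15 (adjusted p = 0.065). TNF, the inflammatory cytokine, was at 9.64, 9.78, 9.39 and 9.41 with sgRNA2, against 9.48, 9.58, 8.86 and 8.95 in control (0.34, SE 0.055, adjusted p = 0.00116). TNFRSF19, a member of the same receptor family as the TNF receptors, was at 6.88, 6.69, 6.69 and 6.52 with sgRNA2, against 7.09, 6.92, 7.12 and 7.19 in control (-0.39, SE 0.0605, adjusted p = 0.000956), with the groups apart.

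Without the block none of these myeloid and antigen presentation genes passed. In numbers 1 and 2 alone 5 monocyte and macrophage markers rose (median 0.11) and in numbers 3 and 4 alone 10 (median 0.30), and without a library or number the count was 6 to 11.

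**Figure D4:**
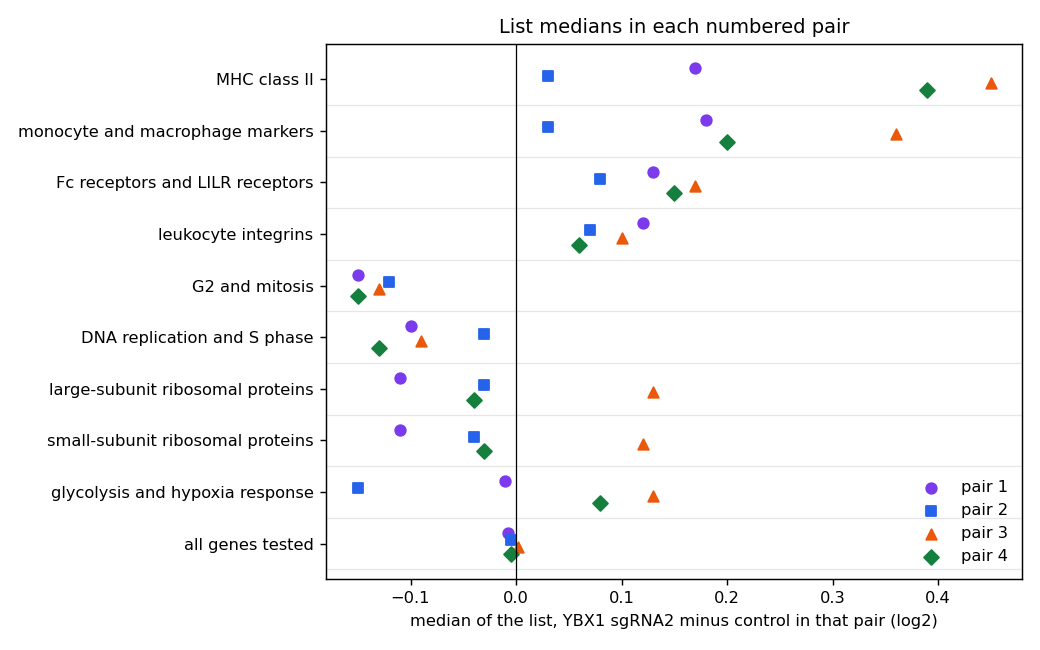
Median difference between YBX1 sgRNA2 and control (x axis, log2) of 9 gene lists and of all genes tested, in each of the 4 numbered pairs. The mitotic list lies at -0.15 to -0.12 in every pair, the MHC class II list at 0.03 in pair 2 and 0.45 in pair 3, and the ribosomal lists are above 0 in pair 3 alone.

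The 15 largest increases that held in all 4 pairs also contained FGL2, a fibrinogen-like immune regulator (0.40), CDHR1, a photoreceptor cadherin (0.39), and RAB37, a GTPase of secretory granules (0.39). TGM5, a transglutaminase, rose by 0.38, SEMA4A, a semaphorin of immune cells, by 0.37, RCBTB2 by 0.35, SCUBE1, a secreted and surface glycoprotein, by 0.34, FCER2, the low-affinity IgE receptor, by 0.34 and HSPA6, an inducible heat shock protein, by 0.33. Adjusted p-values of these 9 genes ran from 0.000271 (SCUBE1) to 0.00729 (HSPA6). RAB37, CDHR1 and RCBTB2 had groups that did not overlap. FCER2 missed the threshold without number 4 (0.0515) and HSPA6 without number 3 (0.0509) or number 4, where its difference was 0.22 (0.0817).

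The 15 largest decreases that held in all 4 pairs also contained PCGF5, a Polycomb protein, VANGL1, a planar cell polarity protein, and LRRC59, a ribosome-binding protein of the endoplasmic reticulum, at -0.31 each. IGFBP2, which binds insulin-like growth factors, and CHML, a Rab escort protein, fell by 0.28 each. VANGL1 was below control in every library, as was PCGF5. LRRC59, IGFBP2 and CHML overlapped between groups.

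**Figure D5:**
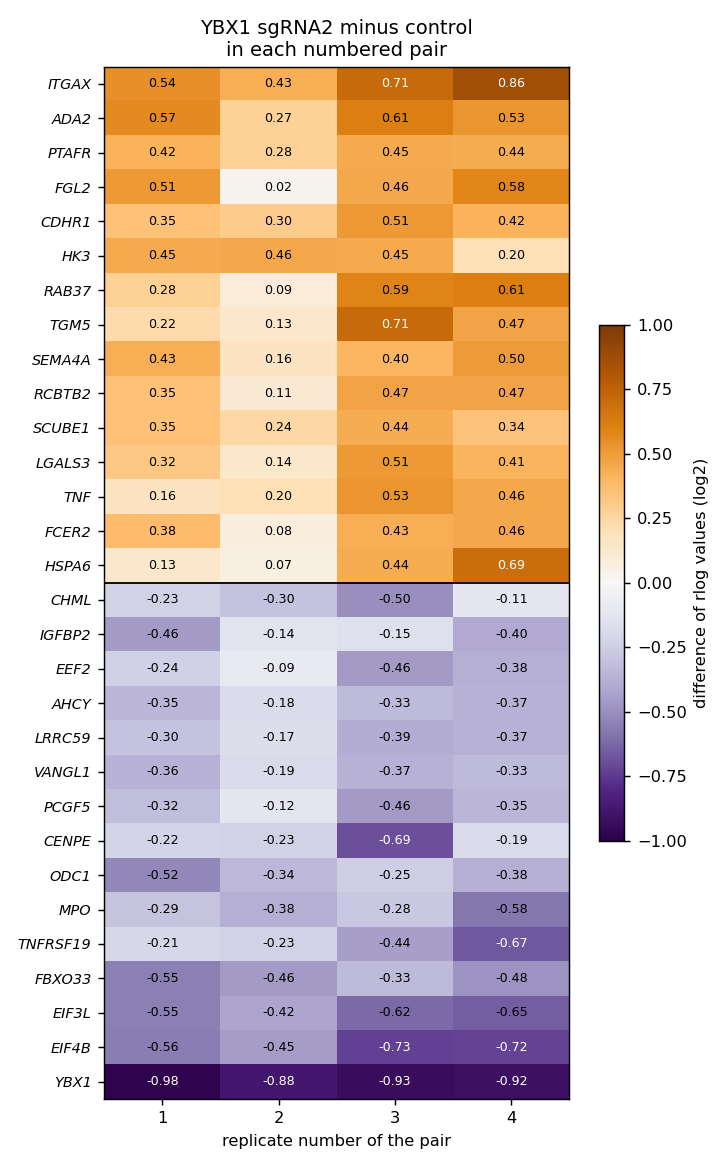
Differences between YBX1 sgRNA2 and control within each of the 4 numbered pairs (columns, log2) for the 15 largest increases and 15 largest decreases that had the same direction in all pairs. YBX1 ranges from -0.98 to -0.88 and ITGAX from 0.43 to 0.86, and increases are mostly smallest in pair 2.

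Metabolic and stress genes moved in few members. Of 21 genes of the integrated stress response 4 fell (19%, against 1.78% of all genes) and none rose. Those that fell were the amino acid transporters SLC7A5 and SLC7A11, the serine synthesis enzyme PSAT1 and the folate enzyme ALDH1L2. SLC7A11, the cystine transporter, was at 8.40, 8.24, 7.54 and 7.65 with sgRNA2, against 8.62, 8.26, 8.13 and 7.96 in control (-0.28, SE 0.0703, adjusted p = 0.0272), with a call in 6 of the 12 leave-out fits and -0.18 without sgRNA2 library 3 or number 3. ALDH1L2 fell by 0.23 (adjusted p = 0.00992), and by 0.14 without number 3 (adjusted p = 0.0917). SCD and ACACA were among the genes that fell in the list of cholesterol and fatty acid synthesis (28 tested, median -0.00). SCD, the stearoyl-CoA desaturase, was at 13.34, 13.15, 13.38 and 13.42 with sgRNA2, against 13.40, 13.58, 13.74 and 13.59 in control (-0.25, SE 0.0498, adjusted p = 0.00513), and missed the threshold without number 2 (0.071). ACACA, the first enzyme of fatty acid synthesis, was at -0.19 (adjusted p = 0.0241), and at -0.12 without number 3 (0.188).

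In apoptosis control BCL2, the anti-apoptotic founder of its family, fell and BCL2A1, a relative induced by inflammation, rose. BCL2 was at 10.43, 10.43, 10.16 and 10.17 with sgRNA2, against 10.60, 10.65, 10.68 and 10.31 in control (-0.26, SE 0.0501, adjusted p = 0.00407). BCL2A1 was at 4.97, 4.92, 5.26 and 5.02 with sgRNA2, against 4.84, 4.76, 4.80 and 4.93 in control (0.21, SE 0.0526, adjusted p = 0.0286). The difference was widest in pair 3, and without number 3 it was 0.13 (adjusted p = 0.254), with a call in 6 of the 12 leave-out fits. Of 22 p53 target genes BTG2, an antiproliferative factor, rose by 0.32 (SE 0.0542, adjusted p = 0.00162) and TNFRSF10B, a death receptor, by 0.14 (adjusted p = 0.0321), and none fell. The share that rose was 9.09%, against 2.17% of all genes. TNFRSF10B passed in 2 of the 12 leave-out fits, and in none that omitted a number. Of 19 MAPK feedback genes KSR1, a scaffold of the cascade, rose by 0.29 (SE 0.0467, adjusted p = 0.00105) and FOS by 0.28 (SE 0.057, adjusted p = 0.00706).

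In the remaining lists few genes passed. No gene passed among 48 of oxidative phosphorylation, 34 proteasome subunits and 38 splicing factors. CCT5, a chaperonin subunit, fell among 27 chaperones, OAS1 rose among 24 interferon-stimulated genes and HK3 among 29 of glycolysis and the hypoxia response. These single calls were 3.7%, 4.17% and 3.45% of their lists. Over all genes 1.78% fell and 2.17% rose. SQSTM1, GRN and GAA rose among 38 lysosome and autophagy genes, and IMPDH2 and RRM1 fell among 28 of nucleotide synthesis and folate metabolism. The calls of CCT5, OAS1, SQSTM1, GRN, GAA and RRM1 held in 2 to 5 of the 12 leave-out fits. Medians of these lists lay between -0.08 and 0.03.

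The guide with more remaining YBX1 mRNA was then set against sgRNA1, in the fit of all 12 libraries, in which the control libraries contribute to the spread and the block. YBX1 was at 11.93, 12.07, 11.83 and 11.89 with sgRNA2, against 11.20, 11.38, 11.08 and 11.09 with sgRNA1, a difference of 0.75 (adjusted p = 2.72e-11 in limma, exact two-sided permutation p = 0.0286, the smallest that 70 arrangements allow). Since sgRNA2 was already known from these values as the guide with more YBX1 mRNA, the p-values for YBX1 are not independent support. YBX1 was the only gene that passed in that limma fit (0.00911% of those tested), with 750 genes at an unadjusted p below 0.05. The count was 25 when the 2 groups were fitted alone and 75 in numbers 3 and 4 alone.

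The values of each guide against control are set side by side because both comparisons use the same control libraries. EIF4B was at -0.62 with sgRNA2 and -0.91 with sgRNA1, EIF3L at -0.56 and -0.79, and FBXO33 at -0.45 and -0.54. For ITGAX the values were 0.64 with sgRNA2 and 0.50 with sgRNA1, for ADA2 0.49 and 0.49, and for CENPE -0.33 and -0.20. The list medians were 0.21 with sgRNA2 and 0.04 with sgRNA1 for monocyte and macrophage markers. They were 0.30 and 0.14 for MHC class II, and -0.15 and -0.11 for G2 and mitosis. In the ribosomal lists sgRNA1 had the larger shift. Large-subunit proteins were at -0.01 with sgRNA2 and -0.07 with sgRNA1, and small-subunit proteins at -0.02 and -0.09. None of these genes other than YBX1 passed between the guides in the fit of all 12 libraries, which does not show that the guides act alike.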

How the data were processed

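RNA was sequenced in 12 MOLM13 libraries (sgRNA2, sgRNA1 and control, 4 each) as 37 bp paired-end reads. Per the labels, the authors used bcl2fastq 2.20.0.422, STAR 2.7.5a, Picard 2.9.4, HTSeq 0.6.1pl and DESeq2 with GRCh38. The values used were deposited by the authors as log2 values regularized with DESeq2 (rlog) for 19755 protein-coding genes, a transformation that shrinks weakly expressed genes. The tables with the authors' own log2 fold changes and p-values, and the one with scaled scores, were left out. No read counts were analysed.

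Genes with a mean rlog of at least 4 (10982) were fitted with limma 3.58.1 in R 4.3.3 (eBayes with a trend, 3 groups over 12 libraries, replicate number as a block), two-sided, with Benjamini-Hochberg adjustment. Libraries with the same number deviated together from their group means (12 correlations between 0.38 and 0.78), and those with different numbers ranged from -0.74 to 0.75 (36 correlations). Between control and sgRNA2, libraries 3 and 4 matched across numbers (0.75 and 0.45) about as well as within them (0.38 and 0.68). The data therefore do not single out the pairing of numbers 3 and 4. The numbers were treated as pairing because the comparison is defined by them, and the labels do not say what they stand for. The study's methods state no block. The members and the 38 gene lists, as well as the motifs, were chosen with earlier results of these data known.

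The genes named are YBX1 and its relatives, EIF4B, EIF3L, EIF3D, EEF2, RPL4, RPL6, MYC, the 15 largest calls in each direction with 4 concordant pairs, and per list up to 4 called members a direction (otherwise up to 2 with the smallest p). Other called members are named without such a rank, and some members are not reported here. Alternatives were no block, 2 groups alone, other filters, scalings and eBayes settings, numbers 1 and 2 or 3 and 4 alone, and each library or number left out. The fit was tested on simulated data with additive number effects and independent noise. That setting has the block built in, so it cannot show whether the numbers pair the real libraries. Gene positions are from GENCODE 29, promoters from RefSeq (GRCh38.p14).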

Additional observations from a re-analysis of the deposited data

Results flagged for a closer look

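Among 216 groups of 4 libraries screened (the 108 named genes in sgRNA2 and control) 8 held a library far from the other 3, where chance gives about 1 in 20. In sgRNA2 library 1 RPL4 was at 14.66 (the others 14.88 to 14.90), PHB2 at 11.69 (11.81 to 11.83), TNFRSF10B at 11.09 (11.24 to 11.26) and CEBPB at 7.60 (7.42 to 7.45). In sgRNA2 library 2 RPS27L, a p53 target, was at 10.30 (9.99 to 10.04) and LGALS3 at 7.51 (7.82 to 7.87). In control library 3 CEBPB was at 7.07 (7.40 to 7.46), and in control library 2 ADA2 was at 8.67 (8.16 to 8.22).

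YBX1 differed between the guides. It was at -0.93 with sgRNA2 and -1.67 with sgRNA1 against control, and the difference of 0.75 had an adjusted p of 2.72e-11 in limma. The order of the guides was known from these values beforehand, so the p-value is not independent support.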

How the results depend on the processing

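YBX1 kept its direction and call under every alternative run, at -0.95 to -0.89 against control and 0.72 to 0.78 against sgRNA1. The 434 genes changed with sgRNA2 against control (238 rose, 196 fell) became 4 (0 and 4) with no replicate block, 167 (103 and 64) with the 2 groups alone and the block, 3 (0 and 3) with the 2 groups alone and no replicate block, and 112 (57 and 55) with no filter on the mean. They became 1 (0 and 1) in numbers 1 and 2 and 129 (103 and 26) in numbers 3 and 4 with no replicate block, against 345 (197 and 148) and 438 (249 and 189) with it, of which 173 and 221 were among the 434, and 3 with a fold of over 1.5. Without a library or number the count was 145 to 658 (74 to 340 rose, 64 to 318 fell). Quantile scaling gave 345 (212 and 133), median centring 434, no trend 382, robust eBayes 470 and a mean of at least 6 gave 385. The 1 gene that differed between the guides became 25 (15 and 10) with the 2 groups alone, 10 (6 and 4) in numbers 1 and 2 and 75 (20 and 55) in numbers 3 and 4 with the block, 2 (2 rose) under quantile scaling and robust eBayes, and 1 to 3 (all rose) without a library or number. EEF2 came to 0 under quantile scaling, which gives the genes at the top of the ranks the same value in each library. Among the genes named, 85 lost their call with no replicate block and 44 with no filter. The cause of these changes was not tested. The depth of the libraries is unknown, which leaves the spread between libraries as the measure of precision.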

Other observations

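Of the 434 genes called with sgRNA2, 342 stood in none of the 38 gene lists. The genes below were chosen from these after their values were seen. FAM20C, the Golgi kinase of secreted proteins, was at 9.61, 9.62, 9.62 and 9.64 with sgRNA2, against 9.31, 9.35, 9.24 and 9.28 in control, a rise of 0.33 (SE 0.0472, adjusted p = 0.000396 in limma) with almost no spread within sgRNA2. CXCR4, the chemokine receptor that retains leukemic cells in the marrow, was at 10.71, 10.66, 10.68 and 10.67 with sgRNA2, against 10.56, 10.50, 10.22 and 10.29 in control (0.29, SE 0.0506, adjusted p = 0.00228). For FAM20C and CXCR4 every sgRNA2 library was above every control library. TYROBP, a signaling adaptor of myeloid receptors, rose by 0.31 (adjusted p = 0.00692) and FTH1, the ferritin heavy chain, by 0.26 (adjusted p = 0.00692).

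MYBL2, a transcription factor of mitotic genes, was at 11.21, 11.41, 11.08 and 11.09 with sgRNA2, against 11.48, 11.48, 11.33 and 11.47 in control (-0.24, SE 0.0457, adjusted p = 0.00425), and its groups overlapped. KIF4A, a chromosome-associated kinesin, fell by 0.24 (adjusted p = 0.0018), and RBMX, a nuclear RNA-binding protein, by 0.23 (adjusted p = 0.00158). The nuclear import receptors IPO5 and IPO7 fell by 0.23 (adjusted p = 0.00428) and 0.24 (adjusted p = 0.00439). CSNK2A1, the catalytic subunit of casein kinase 2, was at 10.48, 10.44, 10.40 and 10.37 with sgRNA2, against 10.70, 10.64, 10.60 and 10.55 in control (-0.20, SE 0.0387, adjusted p = 0.00441), lower in every library.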
